A study of Mus musculus with 24 samples.

Results

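The m6A peak lists of mouse spinal cord on day 14 and on day 3 after spared nerve injury were compared peak by peak. A peak was called strict when its fold enrichment, the deposited ratio of antibody-enriched over input signal, was at least 2 and its deposited log10 p was at most -5. A strict peak of day 14 was called gained, and a strict peak of day 3 lost, when no base of it overlapped any peak of the other day's complete list on the strand of its gene. All other strict peaks were called shared. These limits gave 44051 strict peaks, 21955 on day 14 and 22096 on day 3, out of 145625 peaks in the 4 lists of the study. Of them 394 were gained and 400 were lost.

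Spared nerve injury is a mouse model of neuropathic pain in which the common peroneal and tibial nerves are tied and cut while the sural nerve is left, here under sevoflurane. The study had 4 groups, which were injured mice on days 3, 7 and 14 and sham-operated mice, labelled day 3, in which the sciatic nerve and its branches were only exposed. Each group had 3 libraries of poly(A) RNA pulled down with an m6A antibody and 3 input libraries, 24 samples in all, and the 12 samples of days 3 and 14 are the ones compared here. The genotype, strain, sex and age of the mice, the segment and side of the cord, and whether a library came from 1 animal or a pool are not stated in the labels. A sham group of day 14 was not analysed here, so time after injury and time after surgery cannot be told apart. The peaks came as 1 list per group, and whether replicates were pooled before calling is not given in the sources used here. Differences between the peak lists are therefore descriptions with no test and no error, whereas RNA levels were tested over the 3 input libraries of each day.

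N6-methyladenosine, m6A, is the most common internal modification of messenger RNA. A nuclear complex built on Mettl3 and Mettl14 writes it within a short consensus around GGAC, the demethylases Fto and Alkbh5 can remove it, and YTH-domain proteins bind it and alter splicing, translation and decay. In most tissues the mark gathers around stop codons and in 3' UTRs, and in neurons and glia it has been tied to synaptic function and to the response of axons to injury.

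The peak files carry no sequence, but RefSeq windows of GRCm38.p6 that run 50 bases from each gene's start could be read at peaks lying on a transcript start. They are shown because 5' UTR peaks made up a larger share of gained and lost peaks than of shared ones, as given below. In each 24-base site, printed 5' to 3' on the transcribed strand, capitals mark GGAC, the commonest form of the m6A consensus. The first set of sites lay in gained peaks of Faf2 (an adaptor of endoplasmic reticulum-associated degradation), Fbxo21 (a ubiquitin ligase subunit), Aen (a nuclease) and Firre (a noncoding RNA), at chr13:54621799-54621822, chr5:117976784-117976807, chr7:78896074-78896097 and chrX:50635297-50635320.
Faf2: gtgacggtgcGGACgggtcaggag
Fbxo21: tcaggtacgcGGACaagatggcgt
Aen: gtggctctcgGGACgggttggttt
Firre: acagtgggcgGGACtaagggggcc
The next set lay in lost peaks of Fcrls (a surface receptor of microglia), Adnp (a chromatin protein of neurons), Pphln1 (periphilin, a silencing factor) and Tmem129 (a ubiquitin ligase of the endoplasmic reticulum), at chr3:87263501-87263524, chr2:168207079-168207102, chr15:93398361-93398384 and chr5:33657936-33657959.
Fcrls: aGGACttgagctgcacctgtctca
Adnp: gcaggttcggGGACttgctctgag
Pphln1: tagggcgagcGGACgtctggcttc
Tmem129: gccagtagccGGACttGGACtccg

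GGAC was in 6 of the 36 windows under gained peaks (16.7%) and in 13 of the 48 windows under lost peaks (27.1%). The share was 20.9% of 1840 windows under shared day 14 peaks, 20.5% of 1951 under shared day 3 peaks and 18.9% of all 32815 windows. Its reverse complement GTCC was in 19.4% of gained and 16.7% of lost windows, and in 17.4% of all windows. The peaks that hold the printed sites had fold enrichments of 2.78 in Faf2, 4.39 in Fbxo21, 5.27 in Aen and 2.12 in Firre on day 14. On day 3 the values were 2.22 in Fcrls, 4.69 in Adnp, 3.06 in Pphln1 and 21.1 in Tmem129.

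The input libraries of both days had similar totals, with FPKM sums of 197878 to 201358, and 13398 to 13511 genes at 1 FPKM or more. Correlations of log2 levels were 0.9801 to 0.9883 within days and 0.9791 to 0.9873 between them. Among the 88 genes at 200 FPKM or more, ratios of libraries spread by 1.64 to 1.86% within a day and by 4.47 to 4.99% between days. Nothing in the labels says that libraries came from separate animals, so p-values measure only the spread between these libraries, which may be technical. Markers of spinal cord were present on both days, with no measured gene at 0 in all libraries. Several sums were lower on day 14 without overlap, and others were higher. The summed FPKM of 6 neuronal genes ranged over 1987 to 1999 on day 3 and 1925 to 1948 on day 14, and that of 5 oligodendrocyte genes over 3692 to 3706 and 3482 to 3502. In the same order the ranges were 596 to 599 and 525 to 535 for astrocytes, 44.5 to 46.1 and 38.3 to 39.5 for microglia, 424 to 517 and 355 to 369 for erythroid cells, and 5.22 to 6.70 and 2.24 to 2.78 for neutrophils. Higher on day 14 were the sums of Hox genes, at 88.1 to 90.0 and 91.5 to 93.0, and of motor neurons, at 18.1 to 18.6 and 19.2 to 20.2. Endothelial cells and pericytes were also higher, at 56.6 to 57.2 and 57.9 to 59.7. Abundant genes weigh most in a sum, and members of a list differed. Mean FPKM on days 3 and 14 was 711 and 692 in Nefl but 24.7 and 26.5 in Rbfox3. Among astrocyte genes it was 358 and 299 in Gfap but 13.7 and 14.4 in Aldh1l1. The part of these differences in the peaks was not tested. In bulk tissue, fewer cells of a type and less RNA per cell cannot be told apart.

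Libraries 1 and 2 of day 3 stood apart in genes of other organs. Summed FPKM of 30 liver genes was 3.80, 390 and 33.0 in day 3 libraries 1 to 3 and 2.25, 15.6 and 3.39 on day 14, so library 2 of day 3 was far above the rest. Over 8 lung genes the sum was 149 in day 3 library 1 and between 0.187 and 0.320 in the other 5. These genes bear on the gained peaks, as described further on.

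**Figure D1:**
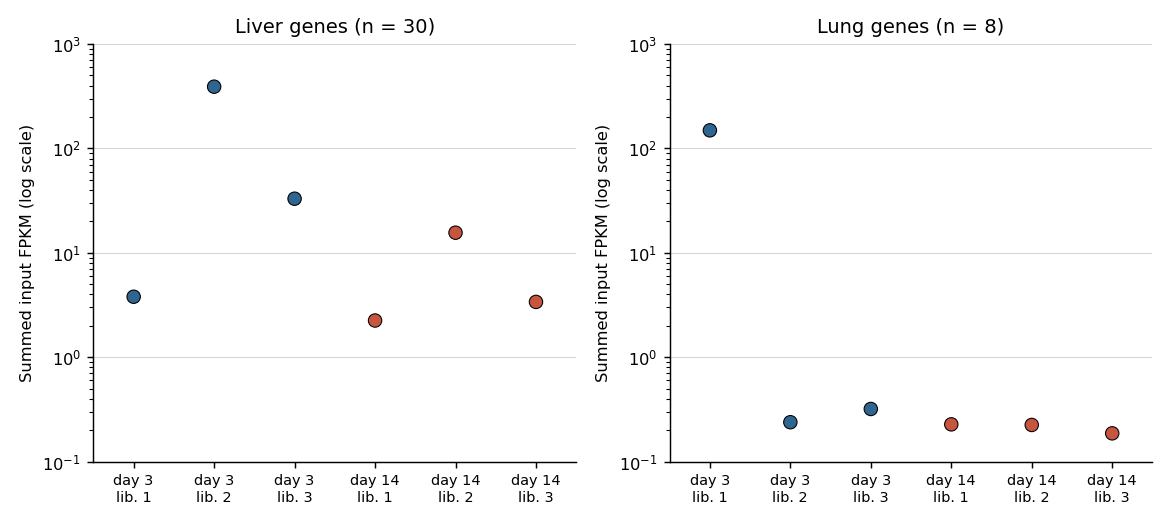
Summed input FPKM (log axis) of 30 liver and 8 lung genes in each of the 6 input libraries; each point is 1 library, blue for day 3 and red for day 14. Liver genes reach 390 in day 3 library 2 and lung genes 149 in day 3 library 1.

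The m6A landscape was largely the same on both days. The lists held 38655 peaks on day 14 and 40195 on day 3, and strict peaks lay in 13343 and 13397 genes, of which 12554 were in common. Strict peaks had a median fold enrichment of 5.30 on day 14 and 5.19 on day 3, and median exonic lengths of 509 and 510 bases. Of strict day 14 peaks 1.79% were gained (394 peaks in 383 genes), and of strict day 3 peaks 1.81% were lost (400 peaks in 388 genes). Only 8 genes held both a gained and a lost peak. Most gained peaks, 302 of 394, lay in a gene that kept another peak on day 3, and 302 of 400 lost peaks lay in a gene with another peak on day 14. The median distance to the nearest peak of the other list was 2688 bases for gained and 2778 for lost peaks. Within 100 bases of such a peak lay 34 gained and 27 lost peaks.

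Most gained and lost peaks were weaker and shorter than shared ones. The median log10 p was -6.86 for gained and -6.21 for lost peaks, against -39.5 for shared peaks of day 14 and -36.0 for those of day 3. A log10 p above -10 was found in 78.4% of gained and 88.2% of lost peaks, but in 19.4% and 21.2% of shared peaks. Median fold enrichment was 3.49 for gained and 4.30 for lost peaks, below 5.34 and 5.21 for shared peaks. The upper end went the other way, since the highest 10% began at 20.8 and 21.1 for gained and lost peaks and at 14.1 and 13.9 for shared ones. Exonic lengths had medians of 211 and 240 bases, less than the 510 and 531 of shared peaks. Genes with fewer transcripts were more common among them, since 22.3% of gained and 27.3% of lost peaks lay in a gene below 1 FPKM against 17.7% and 18.4% of shared peaks. At the threshold, the gained peak of Rabepk (log10 p -5.0, fold enrichment 2.68) was just inside and a day 14 peak of Smarcd2 (-4.97, 4.77) just outside. On day 3, Zfp688 (-5.0, 3.75) was just inside and Zfp282 (-4.98, 2.17) just outside. Another 5859 peaks of day 14 and 7215 of day 3 lacked an overlap but were not strict.

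The transcript regions of gained and lost peaks also differed from those of shared peaks. The region is that of the deposited annotation, which assigned 22.6% of day 14 and 22.4% of day 3 peaks to another gene than their own. Gained peaks were in 3' UTRs in 53.0% of cases and lost peaks in 40.8%, against 61.9% and 61.6% of shared peaks. Lost peaks were in exons outside UTRs in 37.2%, above the 23.1% of shared day 3 peaks, whereas gained peaks stood at 24.9%, near the 22.7% of shared day 14 peaks. In 5' UTRs lay 22.1% of gained and 22.0% of lost peaks, against 15.4% and 15.2% of shared ones. Genes with a predicted or pseudogene-type name held 20.8% of lost and 14.2% of gained peaks, against 12% and 11.7% of shared peaks.

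Many of these sites were seen in the other groups. A day 7 peak overlapped 41.1% of gained and 42.2% of lost peaks, and a sham peak 36.0% and 34.5%. Shared sites were far more often present there, at 90.0% for day 7 and 85.5% or 85.3% for sham. In neither list were 178 gained peaks (45.2%) and 189 lost peaks (47.2%). A site carried by day 7 and day 14 but by neither day 3 nor sham was found for 74 gained peaks, and 42 lost peaks were matched in sham alone.

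**Figure D2:**
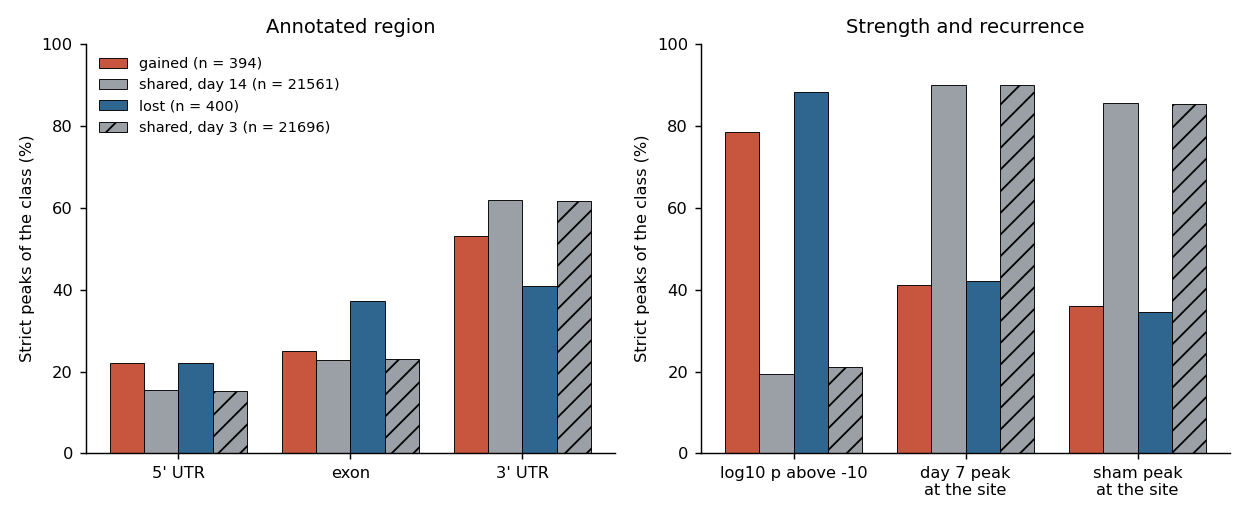
Percent of strict peaks in each annotated region (left) and percent with a log10 p above -10 or with a peak of day 7 or sham at the site (right), for gained, lost and shared peaks. Gained and lost peaks have fewer 3' UTR sites (53.0 and 40.8%) than shared peaks and more values of log10 p above -10 (78.4 and 88.2%).

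Among genes at 1 FPKM or more on both days and without a predicted name, the 3 gained peaks of highest fold enrichment were in Zxda, Rpl21 and Pabpc1l2a-ps, which all have close copies. Zxda, an X-linked zinc finger gene with a near-identical neighbour Zxdb, had a peak of 299 at chrX:94795563-94797379 in an exon, with no day 3 peak in the gene. Its input FPKM was 1.56, 0.572 and 2.47 on day 3 and 1.61, 1.42 and 1.63 on day 14, so the days overlapped. The peak of Zxdb went from 4.83 to 259 between the days, at 1.90, 2.56 and 1.37 FPKM on day 3 and 2.01, 1.88 and 1.97 on day 14. Reads of such copies may be placed on either gene, so these values are uncertain. Rpl21, which encodes a ribosomal protein and has many processed copies, had a gained exonic peak of 108 and another peak of 4.09 on day 3. Pabpc1l2a-ps, a pseudogene, had a gained peak of 64.2 that was also in the day 7 list at 350 and in the sham list at 19.9.

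The next gained peaks in the same order were in Polr1d, Gpr157, Cdc42ep3, Elf2, Wnt5a and Mylk. Polr1d, a shared subunit of RNA polymerases I and III, gained a 3' UTR peak of 45.7 that was in neither the day 7 nor the sham list. Cdc42ep3 (an effector of the GTPase Cdc42) had 27.2 and the transcription factor Elf2 23.7, both in 3' UTRs. Gpr157, an orphan receptor, had 28.1 at a site annotated to the 3' UTR of another gene, AL606971. Wnt5a, a secreted guidance and polarity ligand, and Mylk, the myosin light chain kinase, tied at 22.9 with 5' UTR peaks. These high ratios rested on modest p-values, from a log10 p of -12.8 in Polr1d to -6.00 in Wnt5a and Mylk. All of these genes except Zxda and Pabpc1l2a-ps held at least 1 other peak on day 3, for example at 32.8 in Gpr157, 59 bases away.

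Lost peaks of highest fold enrichment were in Kif16b (35.2), an endosomal kinesin, Fam205a1 (34.0), the chemokine gene Ccl27b (29.3), Ebag9 and AI506816 (both 28.1), Mxi1 (27.0), a repressor that opposes Myc, Rps12 (26.3) and Erp29 (25.8), a chaperone of the endoplasmic reticulum. Fam205a1, Ccl27b and Rps12 have close copies and are uncertain in the same way. Fam205a2, the copy of Fam205a1, had a shared exonic peak that was higher on day 14, at 201 against 20.1. Kif16b was matched by weaker peaks of 14.1 in both the day 7 and the sham list, and Erp29 by 12.4 in sham. Only Ccl27b and Rps12 of the 8 had no other peak on day 14. Erp29 was lower on day 14 without overlap, at 7.14, 7.59 and 7.10 FPKM on day 3 and 6.15, 6.52 and 6.67 on day 14. So was Rps12, at 35.1, 35.1 and 35.8 and then 34.5, 34.5 and 34.5. In the remaining genes the days overlapped, with Kif16b at 2.15, 2.31 and 2.16 FPKM on day 3 and 2.12, 1.96 and 2.18 on day 14.

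High fold enrichments at modest p-values came in coarse steps. On day 14, 463 strict peaks had a fold enrichment above 20 with a log10 p above -10, and they held only 19 distinct values. On day 3 there were 513 such peaks with 17 values. Ties such as the 22.9 of Wnt5a and Mylk are therefore common at this end of the lists.

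Raising the limits to a fold enrichment of 3 and a log10 p of -10 left 43 gained peaks in 40 genes and 29 lost peaks in 27 genes. Among the gained, 10 were in 9 genes of the liver list and 7 in genes with predicted names, which leaves 26 genes of other kinds. They included the deubiquitinase Usp9x (5.88), the gamma-secretase subunit Aph1a (4.68), the mitochondrial biogenesis coactivator Ppargc1a (3.61), the AMPA receptor subunit Gria2 (5.21) and the growth factor Csf1 (3.36). Among the lost peaks 8 were in genes with predicted names and 4 in mitochondrially encoded genes, mt-Nd3 (15.5), mt-Nd4l (10.9), mt-Atp6 (4.53) and mt-Co2 (3.48), which encode respiratory chain subunits. Mitochondrial genes had 14 strict peaks on day 3 and 9 on day 14, and none was gained. Input levels of mt-Co2 were 95.6, 83.8 and 51.2 FPKM on day 3 and 66.2, 54.4 and 68.2 on day 14, with overlapping ranges. Lost peaks also included the histone deacetylase Hdac1 (12.9) and the zinc finger gene Unkl (7.96). Of the 43 gained peaks 22 were in neither the day 7 nor the sham list, and of the 29 lost peaks 11.

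Hnrnpa3, which encodes an RNA-binding splicing regulator, was a gained 3' UTR peak of 3.02 with a log10 p of -221. Its input FPKM was 25.3, 0.791 and 25.6 on day 3 and 24.7, 25.4 and 24.5 on day 14. A single library, day 3 library 2, was low, and the other 5 were within 24.5 to 25.6. The part of that library in the gained call was not tested.

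Liver transcripts formed a group among the gained peaks. Of the 30 liver genes, 13 held 16 gained peaks with fold enrichments of 16.7 to 153, and 0 lost peaks. They were the major urinary proteins Mup3, Mup7, Mup11, Mup17 and Mup20, the fatty acid carrier Fabp1, haptoglobin Hp, the fibrinogen chain Fga, the protease inhibitors Serpina1a, Serpina1c, Serpina1e and Serpina3k, and Cyp2e1. Several of these sites had a day 7 peak, for example 84.5 in Mup3, 42.3 in Mup20 and 13.2 in Mup7. Those of Fabp1, Hp and Cyp2e1 had none, and no site had a sham peak. Of the 10 that passed the raised limits above, 7 had a day 7 peak. Strict liver peaks numbered 17 on day 14 and 1 on day 3. The input levels went the other way. Mup7, with the gained peak of 153, was at 0, 40.6 and 0 FPKM on day 3 and at 0 in all 3 day 14 libraries. Fabp1, with gained peaks of 114 and 34.3, was at 0, 20.6 and 6.77 on day 3 and at 0.101, 0.0661 and 0 on day 14. The highest level was in day 3 library 2 in both genes, and a fold enrichment divides by an input that was near 0 on day 14. The part of that library in these calls was not tested. The Mup genes, and the Serpina1 genes, are close copies of each other, so single members are uncertain. Leaving out the liver and lung genes, 378 gained and 400 lost peaks were counted.

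Pairs of peaks that were strict on both days allowed the height of shared sites to be compared. Each day 14 peak was paired with its best overlapping day 3 peak where each was the other's best match, which gave 18524 pairs in 12197 genes. A further 3037 shared peaks of day 14 and 3172 of day 3 overlapped only a weaker peak or one paired elsewhere. Fold enrichment was at least 1.5 times higher on day 14 in 1973 pairs (10.7%) and at least 1.5 times lower in 1486 (8.02%), and 81.3% lay between. At 2 times the counts were 769 higher and 651 lower. The median log2 ratio was 0.05, with quartiles of -0.17 and 0.28 and percentiles 5 and 95 at -0.81 and 0.91. Across pairs, log2 fold enrichments of the 2 days correlated at Pearson r = 0.829, a description across peaks that share the same libraries and are not independent.

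**Figure D3:**
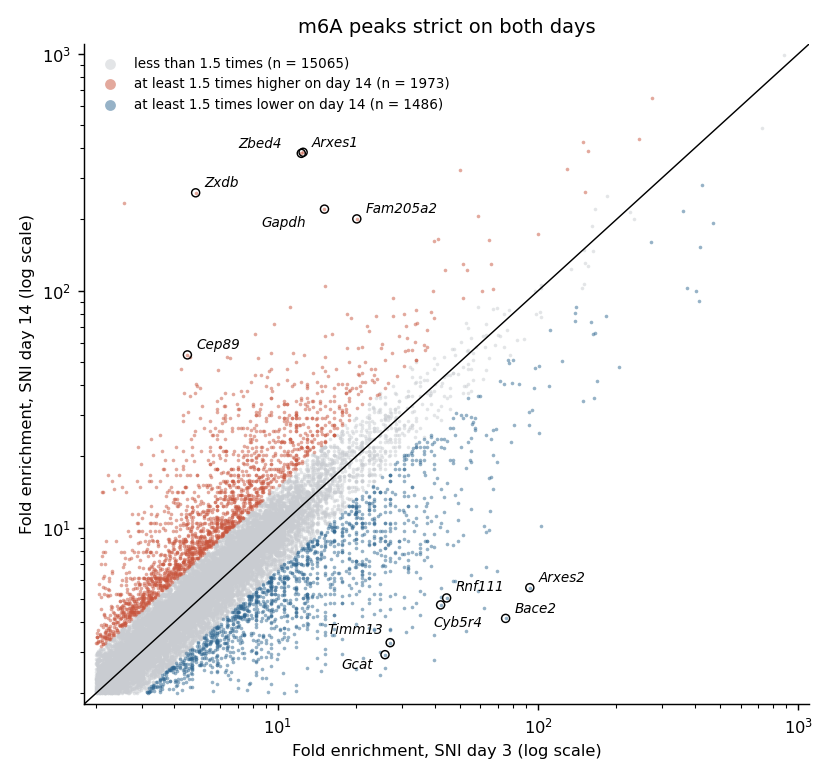
Fold enrichment on day 3 and day 14 (log axes) of the 18524 peak pairs strict on both days; each point is a pair, the line marks equal values and circles mark the 6 largest differences in each direction among genes named by rule. Most pairs (81.3%) lie within 1.5 times, 1973 lie above and 1486 below.

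How often a pair differed depended on the gene's RNA level. Below 1 FPKM 42.7% of 2903 pairs were past 1.5 times in either direction, against 18.6% of 6681 at 1 to 5 FPKM, 11.5% of 6675 at 5 to 20 and 8.71% of 2147 at 20 or more. The shares also differed by region. In 5' UTRs 15.1% of pairs were higher and 13.7% lower, in exons 13.6% and 11.5%, and in 3' UTRs 8.69% and 5.58%. Called lengths moved with the ratio, since the median log2 ratio of exonic length was 0.09 in higher pairs, -0.17 in lower pairs and 0.00 in the rest. Among 4534 genes with at least 2 pairs, 134 held a higher and a lower pair at once.

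**Figure D4:**
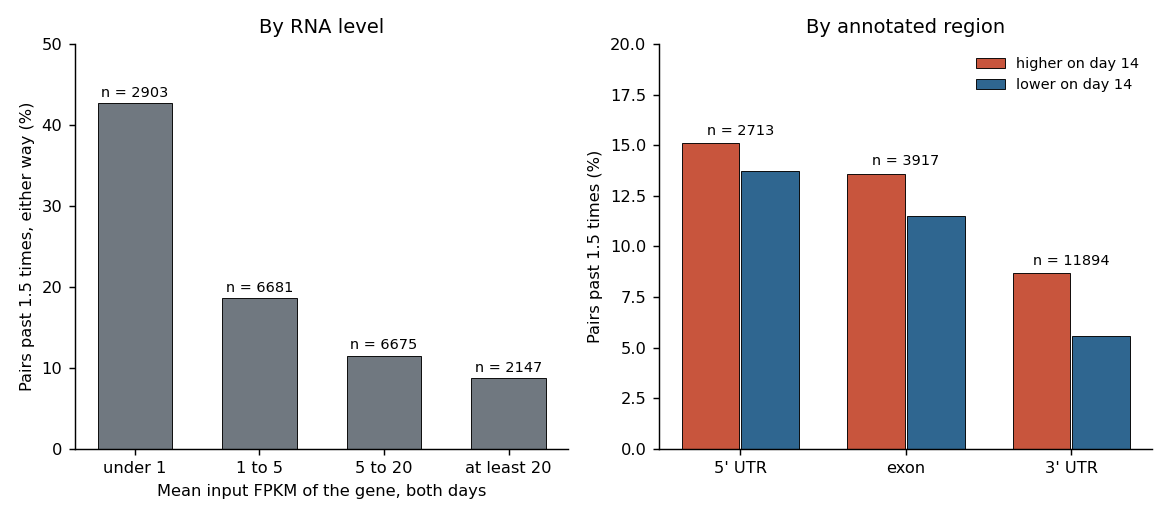
Percent of pairs past 1.5 times in either direction by the gene's mean input FPKM (left) and percent higher or lower on day 14 by annotated region (right), with the number of pairs above the bars. The share falls from 42.7% below 1 FPKM to 8.71% at 20 FPKM or more and is lowest in 3' UTRs.

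Of the 12 largest differences between paired peaks under the same limits, 6 in each direction, 5 were in genes with close copies or many pseudogenes (Zxdb, Arxes1, Arxes2, Fam205a2 and Gapdh). Higher on day 14 were Zxdb (4.83 to 259), Zbed4 (12.3 to 380), Arxes1 (12.5 to 384), Gapdh (15.1 to 221), Cep89 (4.49 to 53.6) and Fam205a2 (20.1 to 201). Lower were Bace2 (75.0 to 4.14), Arxes2 (92.9 to 5.58), Cyb5r4 (42.2 to 4.72), Gcat (25.8 to 2.91), Rnf111 (44.5 to 5.05) and Timm13 (27.0 to 3.27). Arxes1 and Arxes2, adipocyte genes that are neighbouring near-identical copies, thus differed in opposite directions. Arxes1 was at 21.1, 17.6 and 18.6 FPKM on day 3 and at 17.7, 17.8 and 7.38 on day 14, while Arxes2 was at 29.1, 32.2 and 33.1 and then at 33.4, 32.5 and 40.6. Day 14 library 3 was low in the first copy and high in the second. Gapdh, a glycolytic enzyme with many pseudogenes, was at 23.2, 23.7 and 36.9 FPKM on day 3 and at 23.7, 23.4 and 21.5 on day 14. Zbed4 peaks were 330 bases long on day 3 and 4211 on day 14, and those of Zxdb 360 and 2003, so these pairs compare regions of unlike size. In Bace2, a protease related to beta-secretase, lengths went from 1201 to 421 bases.

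Genes of pain, glia and m6A biology were read against these backgrounds, using 21 lists with 438 genes. They held 787 strict peaks on day 14 and 771 on day 3, of which 7 were gained and 7 lost. These are 0.889% gained and 0.908% lost, below the 1.79% and 1.81% over all strict peaks. Of their 693 pairs 51 were higher (7.36%) and 39 lower (5.63%), also below the 10.7% and 8.02% over all pairs, and their median log2 ratio was 0.03 against 0.05. Of these 90 pairs past 1.5 times 19 were in genes averaging below 1 FPKM over the days, where such differences were most common.

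**Figure D5:**
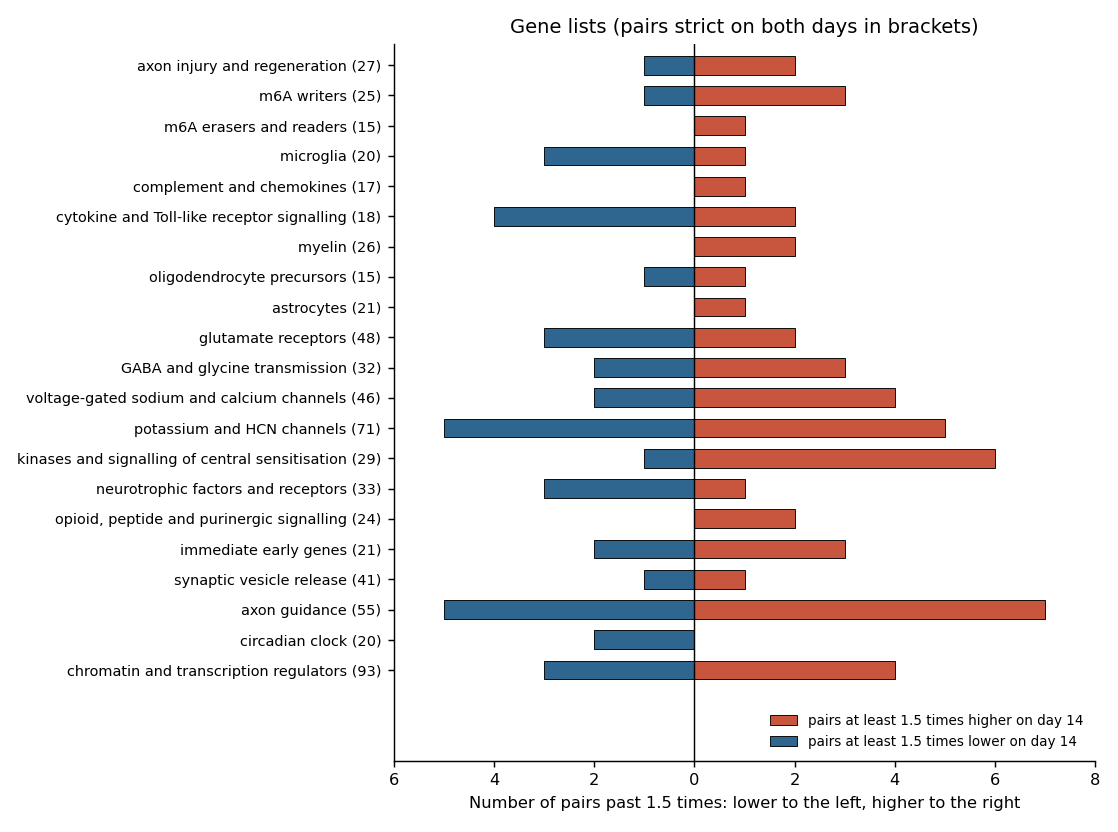
Number of peak pairs at least 1.5 times higher (right) or lower (left) on day 14 in each of 21 gene lists, with the pairs strict on both days in brackets. Most lists have a few pairs on both sides. Kinases of central sensitisation have 6 higher and 1 lower of 29, and cytokine and Toll-like receptor genes 2 higher and 4 lower of 18. Over all pairs 10.7% are higher and 8.02% lower.

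Transcripts of the m6A machinery carried peaks themselves. None of their strict peaks was gained or lost, where 1.79% and 1.81% were over all genes. Of 25 pairs in writer genes 3 were higher (12%) and 1 lower (4.00%), against the 10.7% and 8.02% of all pairs. The catalytic subunit Mettl3 had a 3' UTR peak of 3.89 on day 3 and 3.59 on day 14, its partner Mettl14 2.80 and 2.71. The adaptor Wtap had 3 peaks, among them 6.32 and 6.77. The higher pairs were in Rbm15b (10.6 to 33.4), an RNA-binding subunit of the complex, Virma (3.22 to 5.10), its scaffold, and Zcchc4 (4.45 to 11.1, at 0.945 and 0.896 FPKM), a methyltransferase of ribosomal RNA. The lower pair was in Pcif1 (9.16 to 5.88), which methylates cap-adjacent adenosine. Rbm15b and Virma each had other pairs within 1.5 times. Among 15 pairs of erasers and readers the demethylase Fto stood at 2.82 and 2.58 in the 5' UTR, and the readers Ythdf1 at 3.96 and 3.12, Ythdf2 at 7.55 and 7.70 and Ythdf3 at 8.85 and 8.73. Ythdc2, a helicase reader, was past 1.5 times in the 5' UTR (16.4 to 24.6).

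Microglial genes held 3 of the 7 gained list peaks, which is 11.5% of the 26 strict day 14 peaks of that list against 1.79% over all genes. They were Csf1 (3.36), the growth factor that microglia depend on, its receptor gene Csf1r (2.06) and Sall1 (2.44), a transcription factor of microglial identity. Of its 22 strict day 3 peaks 0 were lost, although Fcrls, a microglial gene outside the list, lost the peak whose site is printed above. The Csf1r peak is annotated to Mir6983, and a gained peak of 2.15 in Hmgxb3 covers the same place on the other strand, so its gene is uncertain. The Csf1 peak lay 59 bases and the Csf1r peak 89 bases from a day 3 peak, and both sites had a sham peak, at 2.76 and 2.83. Sall1 lay 567 bases away and was in neither day 7 nor sham. Of 20 pairs 1 was higher (5.00%) and 3 were lower (15.0%), against 10.7% and 8.02% of all pairs. Cx3cr1, the fractalkine receptor, had a 3' UTR pair that was higher (10.1 to 26.0) and another that was lower (12.9 to 4.34). Selplg (5.21 to 3.09) and Siglech (5.78 to 3.43) were lower. Input FPKM of Csf1r was 15.9, 15.0 and 15.5 on day 3 and 13.8, 13.8 and 13.6 on day 14, without overlap, yet it missed the adjusted threshold in limma (adjusted p 0.0536). Itgam, an integrin of microglia, was called lower, at 6.07, 5.59 and 5.87 FPKM on day 3 and 4.10, 4.41 and 4.51 on day 14 (log2 fold change -0.39 ± 0.05, limma adjusted p 0.0310). Summed microglial markers were lower on day 14, as given above, and their part in these peaks was not tested.

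Cytokine and Toll-like receptor genes had 4 lower (22.2%) and 2 higher (11.1%) pairs of 18, against 8.02% and 10.7% of all pairs. All 6 were in genes below 1 FPKM, where 42.7% of pairs were past 1.5 times in either direction, with Tlr7 at 0.322 and 0.300 FPKM on days 3 and 14. The lower ones were Tlr7 (22.3 to 8.50), a sensor of single-stranded RNA, Tlr2 (16.4 to 10.2), Tgfb1 (8.68 to 4.39) and a 3' UTR site of Il6ra (42.2 to 22.0), while another Il6ra site (7.19 to 13.8) and Il1r1 (11.8 to 21.5), the interleukin-1 receptor, were higher. In the myelin list Sox10, the transcription factor of oligodendrocytes, was higher in its 5' UTR (2.05 to 5.27). Among astrocyte genes Aldh1l1 was higher (3.05 to 6.15). Higher pairs were 2 of 26 in the myelin list (7.69%) and 1 of 21 in the astrocyte list (4.76%), against 10.7% of all pairs. Neither list had a lower pair.

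Receptors of excitatory transmission differed at single sites. Gria2 gained a peak of 5.21, annotated to an exon of Gm25749 and also in the day 7 list at 3.76, while Grik1 (4.98), a kainate receptor subunit, and Grm5 (2.07), a metabotropic receptor, lost 1 each. The Grm5 site was 59 bases from a day 14 peak and had a peak of 2.52 on day 7 and in sham. The glutamate receptor list gained 1 of 53 strict day 14 peaks (1.89%) and lost 2 of 56 of day 3 (3.57%), against 1.79% and 1.81% of all. Of its 48 pairs 2 were higher (4.17%) and 3 lower (6.25%), below the 10.7% and 8.02% of all pairs. The NMDA receptor subunits Grin1 (27.0 to 12.5), Grin2b (15.1 to 8.01) and Grin2a (3.52 to 2.13) were lower. Grin3b (4.84 to 9.09) and Grm2 (5.86 to 10.3, at 0.647 and 0.650 FPKM) were higher. On the inhibitory side Gad2, which makes GABA, was lower in its 5' UTR (17.6 to 4.83) and so was the glycine transporter Slc6a9 (7.62 to 4.30). Receptor subunits Gabra3 (10.2 to 19.0) and Gabrb2 (4.98 to 8.40) and the scaffold Gphn (2.49 to 4.61) were higher. Of the 32 GABA and glycine pairs 3 were higher (9.38%) and 2 lower (6.25%), below the 10.7% and 8.02% of all pairs.

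Ion channel genes gave lost peaks in the T-type calcium channels Cacna1h (5.19 and 2.00) and Cacna1i (3.87) and in Kcna1 (7.33), and a gained peak in Kcnn3 (2.88), which encodes a calcium-activated potassium channel. The Kcna1 peak (log10 p -5.06) lay 149 bases from a day 14 peak. Its site had peaks of 2.65 on day 7 and 6.62 in sham (log10 p -18.8). The Cacna1h site of 5.19 had a sham peak of 4.97. The list of sodium and calcium channels lost 3 of its 53 strict day 3 peaks (5.66%, against 1.81% of all) and gained 0 of 48. Among their 46 pairs Scn9a, the sodium channel of nociceptors, was higher (4.07 to 8.86, at 0.740 and 0.839 FPKM), as were 2 sites of Cacna2d3 (3.65 to 6.32 and 7.62 to 15.8) and Cacnb1 (2.84 to 4.33). Scn8a (7.42 to 2.97) and Cacna1d (10.6 to 6.81) were lower. In all, 4 of the 46 were higher (8.70%) and 2 lower (4.35%), below the 10.7% and 8.02% of all pairs. Potassium and HCN channels had 5 higher and 5 lower of 71 pairs, 7.04% each against 10.7% and 8.02% of all pairs. Kcnq3 (16.4 to 3.52) was lowest in ratio. Kcnh2 was lower in the 5' UTR (8.01 to 3.60) and higher in the 3' UTR (5.37 to 8.45).

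Signalling genes of central sensitisation, the strengthening of dorsal horn synapses after injury, had 6 higher pairs of 29 (20.7%, against 10.7% of all pairs) and 1 lower (3.45%, against 8.02%). The higher ones lay in 4 genes. Adcy5, an adenylyl cyclase, had 2 (3.87 to 11.4 and 3.19 to 6.71), the transcription factor Creb1 had 2 in its 3' UTR (18.2 to 36.9 and 8.21 to 12.7), and the protein kinase C genes Prkce (11.1 to 27.2) and Prkca (3.85 to 6.54) had 1 each. Creb1 also had the lower one, in its 5' UTR (5.86 to 2.64). Pairs of 1 gene share their libraries and are not independent.

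Axon guidance genes had 7 higher (12.7%) and 5 lower (9.09%) of 55 pairs, near the 10.7% and 8.02% of all pairs. Higher were the ephrin receptors Epha5 (4.07 to 17.6), Ephb2 (6.25 to 21.1) and Epha7 (7.03 to 12.2), the ligands Efnb2 (23.4 to 43.9) and Slit2 (5.47 to 18.5), and the semaphorin receptors Plxna4 (4.12 to 6.91) and Plxnb1 (2.48 to 4.58). Lower were Plxna1 (19.9 to 8.98), Plxna2 (11.7 to 5.60), Sema3e (23.4 to 8.57), Sema6a (9.38 to 5.46) and Slit3 (7.23 to 4.18). Among injury-response genes Sox11, a transcription factor of axon regrowth, was higher in the 5' UTR (6.25 to 29.0) and lower in a 3' UTR site (23.0 to 12.7), at 0.765 and 0.825 FPKM, and Jun was higher (20.4 to 44.6). Of the 27 pairs of that list 2 were higher (7.41%) and 1 lower (3.70%), below the 10.7% and 8.02% of all pairs. Immediate early genes had 3 higher (14.3%) and 2 lower (9.52%) of 21 pairs, against 10.7% and 8.02% of all pairs. Jun was among the higher and Egr3 among the lower (25.8 to 6.86, at 0.585 and 0.725 FPKM). Junb lost a 5' UTR peak of 2.22.

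Trophic and peptide systems showed isolated sites. The receptor gene Kdr gained a 3' UTR peak of 2.39, which is 2.63% of the strict day 14 peaks of its list against 1.79% of all. Cntfr, the receptor of ciliary neurotrophic factor (15.2 to 3.52), Ntf3 (32.8 to 18.5) and Bdnf (11.7 to 7.03) were lower and Fgfr1 (11.7 to 20.2) higher. Of 33 trophic pairs 1 was thus higher (3.03%) and 3 lower (9.09%), against 10.7% and 8.02% of all pairs. Among peptide receptors the mu opioid receptor Oprm1 (5.47 to 8.90) and Npy2r (3.52 to 15.8), a receptor of neuropeptide Y, were higher. They were 8.33% of 24 pairs and 0 were lower, against 10.7% and 8.02% of all pairs. Oprm1 was at 0.207 and 0.169 FPKM, Ntf3 at 0.0388 and 0.113 and Npy2r at 0.866 and 1.06. Both clock-gene pairs past 1.5 times were lower, Tef (22.3 to 6.86) and Nr1d2 (13.7 to 5.27). They were 2 of 20 pairs (10%), near the 8.02% of all pairs, and 0 were higher, against 10.7%. Chromatin regulators gained a 3' UTR peak in Hdac4 (2.21), which is 0.962% of their strict day 14 peaks against 1.79% of all. Of their 93 pairs 4 were higher (4.30%) and 3 lower (3.23%), below the 10.7% and 8.02% of all pairs. The higher included Chd4 (8.21 to 29.9) and Kmt2d (2.76 to 8.05), and the lower Tet2 (4.48 to 2.87) and Tet3 (3.60 to 2.14), enzymes of DNA demethylation. In vesicle release, Syt2 was higher (2.13 to 5.63) and Syt11 lower (11.4 to 7.03), each 2.44% of 41 pairs.

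Where peaks were gained or lost, the median RNA change of the genes between the days was near that over all genes. In limma on log2(FPKM + 0.5) of the 6 input libraries, 148 of 15539 genes (0.952%) passed an adjusted p of 0.05, 61 higher on day 14 (0.393%) and 87 lower (0.560%). Rescaled to TPM the split was 117 higher and 78 lower. Most calls were lost elsewhere, with 3 to 9 higher and 5 to 8 lower when any 1 library was left out, 3 and 4 with a replicate block and 2 and 0 in a fit of all 12 input libraries. Of 335 tested genes with a gained peak, of 383, 0 were called higher and 1 lower (0.299%, against 0.560% of all genes). At an unadjusted p below 0.05 in limma there were 50 (14.9%, against 15.4% of all genes). Of 325 tested genes with a lost peak, of 388, 4 were called higher (1.23%, against 0.393% of all genes) and 0 lower (against 0.560%). An unadjusted p below 0.05 in limma was found for 39 of the 325 (12%), below the 15.4% of all genes. The median log2 fold change was -0.01 for the first set, 0.02 for the second and 0.00 over all genes. Input is also the denominator of the fold enrichment, so RNA and peak values are not fully independent.

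The genes called among them changed by small amounts. Chn2, a GTPase-activating protein with a gained peak of 8.44, fell from 7.53, 7.80 and 7.59 FPKM on day 3 to 6.46, 6.42 and 6.70 on day 14. Its log2 fold change was -0.21 ± 0.03 (SE) with a limma adjusted p of 0.0475. Genes with a lost peak that rose were Kcna1 (0.19 ± 0.02), an axonal potassium channel, Sf3a2 (0.25 ± 0.03), a splicing factor, the lipoprotein receptor Lrp1 (0.15 ± 0.02) and the kinesin Kif1a (0.10 ± 0.01). Kcna1 was at 22.6, 23.2 and 23.4 FPKM on day 3 and at 26.4, 26.6 and 26.1 on day 14, and its adjusted p in limma was 0.0247. In each of these genes the 3 libraries of a day did not overlap those of the other day. None of the 5 genes passed when any 1 of the 6 libraries was left out, with limma adjusted p-values of 0.116 to 0.157 for Chn2.

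Few genes whose paired peaks differed were called. Of 1497 tested genes with a higher pair, 1 rose (0.0668%) and 3 fell (0.200%), against 0.393% and 0.560% of all genes. Of 1106 with a lower pair 7 rose (0.633%) and 4 fell (0.362%). Ank3, which organises the axon initial segment and had a higher pair, rose by 0.22 ± 0.02. With lower pairs, Bin2, a gene of microglia and other leukocytes, fell by 0.56 ± 0.07, and Lag3, an inhibitory receptor, rose by 0.51 ± 0.07. None of Ank3, Bin2 and Lag3 passed when any 1 library was left out, at limma adjusted p-values of 0.0856 to 0.140. Over 15346 pairs in genes at 1 FPKM or more on both days, the log2 ratio of fold enrichment and the RNA log2 fold change had a Pearson r of -0.097, given as a description across peaks that share their libraries and their input.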

How the data were processed

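The submitters' processing notes name HISAT2, StringTie, ChIPseeker and edgeR without versions. The caller, the build and any pooling of replicates are unknown, being not given in the sources used here. By name, per the file headers, the deposited peak lists give a fold enrichment (ratio of enriched over input), a score in the form of log10 p, and each peak's blocks. Repeats of an interval and gene were dropped (38644 and 40188 peaks left on days 14 and 3), and strands came from the gene in the name column. Coordinates are printed 1-based. Peaks of 26219 symbols were set against the RefSeq gene of that name on GRCm38.p6, and 99.91% overlapped it, so RefSeq windows of that build were used for sequences. Per the labels' protocols, libraries kept the strand.

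Per the file headers, RNA levels are FPKM deposited by the authors for 32884 genes in the input libraries. Read depth is unknown, so no counting error was computed. Genes averaging 0.5 FPKM or more across the 6 libraries were fitted as log2(FPKM + 0.5) with limma 3.58.1 in R 4.3.3 (eBayes with trend, Benjamini-Hochberg). Fold changes are on that scale and understate those of low genes. The steps were tested on simulated data.

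Members, gene lists and limits were chosen with earlier results of these data known. Genes named by rule were the top 8 peaks by fold enrichment of each class (9 gained, by a tie) and the 6 largest pair differences each way, where the gene averaged 1 FPKM or more on both days and had no predicted name. The rule also took list peaks gained or lost, the largest pair difference of a list, m6A enzymes and called RNAs. The liver and lung genes, the remaining list pairs, the strongest peaks, the microglial and mitochondrial values, the start sites and Fcrls were named after their values were seen. Alternatives covered overlap, thresholds, merging, pseudocount, filter, scaling, libraries and a replicate block. Same-numbered libraries deviated together with correlations of 0.081, 0.207 and 0.151, against -0.167 to 0.018 for unlike numbers. The labels give replicate numbers but no pairing, so the main fit took no pairs.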

Additional observations from a re-analysis of the deposited data

How the results depend on the processing

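Counts of gained and lost peaks stayed within 1.5 times of 394 and 400 under 7 other definitions, from 288 and 282 (genes at 1 FPKM or more) to 398 and 402 (exonic blocks). They moved to 3608 and 3708 when overlap had to be reciprocal and at least 50%, to 43 and 29 with a fold enrichment of 3 and a log10 p of -10, and to 6253 and 7615 with every peak. A reciprocal overlap of 80% gave 1165 higher and 799 lower pairs, and pairs strict in at least 1 list gave 2462 lower ones. Added after the data were seen, ignoring strand gave 378 and 380, and leaving out liver and lung genes 378 and 400.

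RNA calls moved most. Against 61 higher and 87 lower, there were 5 and 3 with no filter, 122 and 143 at 5 FPKM or more, 2 and 0 in the fit of 12 libraries, 141 and 163 in that fit without day 7 library 3 and sham library 3, and 117 higher after rescaling to TPM. In the fit of 12 libraries, limma found 280 genes at an unadjusted p below 0.05. With the replicate block there were 3 higher and 4 lower. Each library correlated best with its own number, which is a hint from the data and not from the design. Leaving out 1 library gave 3 to 9 higher and 5 to 8 lower, so every library mattered. Calls among genes with a gained or a lost peak were 1 and 4. They became 0 and 0 with no filter, in the fit of 12 libraries and with the replicate block, 5 and 7 at 5 FPKM or more, and 4 and 7 without the libraries named above. Rescaling to TPM gave 3 for gained. Leaving out 1 library gave 0 to 1 for gained and 0 to 0 for lost. Among single genes no direction reversed, while 45 values kept their direction but no longer passed. The causes were not tested. Depth is unknown, and weak peaks have no error.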

Other observations

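Day 3 library 1 held Scgb1a1, a secretory protein of airway club cells, at 118 FPKM, whereas the other 5 libraries were at 0. Sftpc, a surfactant protein, was at 23.2 FPKM there and at 0.174 to 0.320 elsewhere. No peak of the 8 genes in the lung list was gained or lost. Outside that list, the lung gene Ager had a gained 3' UTR peak of 38.7, at mean input FPKM of 0.689 on day 3 and 0.299 on day 14. Whether other lung transcripts lie among the gained peaks was not tested. Albumin (Alb) was at 0.0594, 85.4 and 3.09 FPKM in the day 3 libraries and at 0, 3.18 and 0 on day 14. Fcrls, whose printed start site lay in a lost peak, was at 7.65, 6.73 and 6.62 FPKM on day 3 and at 3.98, 5.21 and 4.85 on day 14, with no overlap between the days, and had an adjusted p of 0.0730 in limma.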
